A study of Schizosaccharomyces pombe with 2 samples.

Results

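Ratios of a tup11 tup12 double mutant over wild type were read for 9 fission yeast (Schizosaccharomyces pombe) genes of alkali cation, calcium and proton transport. The cation ATPase gene cta3 and the vacuolar calcium ATPase gene pmc1 had higher normalised ratios on both arrays and passed the threshold. It was passed by 3.41% of all features. With the authors' deposited values, 15 of 4982 features passed it and neither gene did. Of the 9 features of these genes, 7 were higher on both arrays, against 1457 of all 4837 features with a value on both. Among these 7, the means of trk1 and SPACUNK4.07c turned negative in at least 1 other setting, and trk2 was too dim to read on array 2. Another is a sod2 feature that is likely of a superoxide dismutase gene, not a transporter gene. The genes were cta3, SPACUNK4.07c (cta4), SPBC31E1.02c (pmr1), SPAPB2B4.04c (pmc1), pma1, pma2, sod2, trk1 and SPAC1639.02c (trk2), and spots were taken by array name. Spots were found for 8 genes, and no spot carried the name of pmr1, so that gene was not analysed here. The name sod2 stood at 2 print positions, which gave 9 features of 4982 gene features in all, and all 9 had a value on both arrays. The set was chosen by the log2 ratio of cta3, the highest of the series as processed here with code 3 spots left out (rank 2 to 6 in 4 of 13 other settings), so the members' ratios are given as a description and without p-values.

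Each of 2 spotted DNA arrays was hybridised with cDNA of both strains. The D in the mutant's label was taken to mean deletion of tup11 and tup12, and no allele of the wild type is given. Both strains were in logarithmic growth in rich medium, and a temperature of 30 degrees is given for array 1 alone. The mutant carried Cy3 on array 1 and Cy5 on array 2, each array had its own RNA preparation, and n = 2 throughout. Nothing in the labels says whether the mutant was 1 clone. The column headers name no strain. Reading the first channel as the mutant is the likely assignment, though unstated, and all signs would be opposite if it were wrong. A feature named tup1, which matched no gene in the ASM294v3 table, stood at -2.11 ± 0.36 (log2 mutant over wild type, mean ± SD, n = 2, limma adjusted p = 0.000303). The feature of tup11 stood at 0.42 ± 0.75 (limma adjusted p = 0.484), and both exceeded background in each strain, so the deletions were not verified by these signals.

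P-type ATPases use ATP to move ions across membranes and maintain the sodium, calcium and proton gradients of the cell. In fission yeast, cta3 is known as a gene induced by salt through the Sty1 MAP kinase and the transcription factor Atf1. Tup11 and Tup12 are related corepressors that are brought to promoters by DNA-binding proteins, and cta3 is among the genes they are known to repress. Proton ATPases of the plasma membrane energise uptake, the Trk proteins take up potassium, and the Sod2 antiporter exports sodium in exchange for protons.

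The cta3 signal was higher in the mutant on all 4 spots. On array 1, the spots gave median intensities of 17229 and 22127 in the mutant channel against 1664 and 2805 in the wild-type channel. On array 2, they gave 14408 and 20245 in the mutant against 202 and 395 in the wild type. These are raw signals, and the channels differed in brightness over the whole array. The median gene signal was 1338 in the mutant and 4236 in the wild type on array 1, and 2547 and 1350 on array 2.

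**Figure D1:**
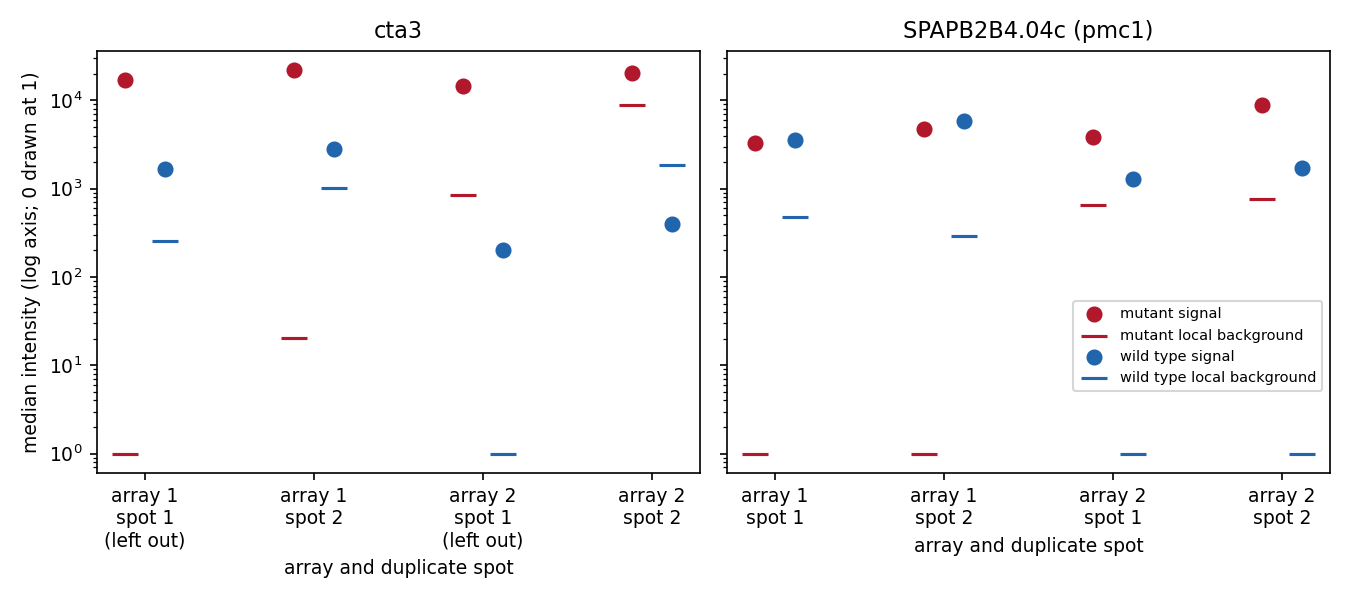
Median signal (points) and local background (dashes) of each cta3 and pmc1 spot in the mutant and wild-type channels, on a log axis of intensity, for 2 duplicate spots on each of 2 arrays. On array 2, the second cta3 spot had a wild-type signal of 395 under a local background of 1875, and "left out" marks spots with quality code 3.

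After normalisation, 3 of the 4 cta3 spots gave nearly the same ratio and the remaining one stood apart. The log2 ratios were 4.70 and 4.73 on array 1 and 4.62 and 6.64 on array 2, or 26.0-fold, 26.5-fold, 24.6-fold and 99.5-fold. The wild-type signal exceeded its detection limit, described below, in the spot at 26.5-fold alone, so the other folds rest on wild-type signals not above that limit. The spot at 99.5-fold lay in a bright patch, with a local background of 8952 in the mutant channel, the 6th highest among the 9964 gene spots of that array. Its wild-type signal of 395 was below its own wild-type background of 1875, which held for 4 of the 9964 gene spots of array 2. The duplicates differed by 0.03 in log2 ratio on array 1 and by 2.01 on array 2, where the median absolute difference between duplicates over all features was 0.29 and 0.31.

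The size of the cta3 difference depended on which of these spots was used. Each scanner table gives a quality code per spot and channel whose meaning is not stated. Leaving out spots with code 3 removed the first cta3 spot on both arrays and kept the spot at 99.5-fold, and the mean was then 5.68 ± 1.35 (log2, n = 2), or 51.4-fold. With code 3 spots kept, the mean was 5.17, or 36.0-fold. With code 3 spots kept and spots under their own local background left out, a setting chosen after the data were seen, the arrays stood at 4.71 and 4.62, with a mean of 4.67, or 25.4-fold. By its mean, cta3 was then 3rd among all features, with inv1 highest at 5.52. It ranked 1st with code 3 spots left out and in 9 of the 13 other settings that gave it a value. All 9 kept the spot at 99.5-fold, and several of them left the ratio of cta3 unchanged, so they are not separate support for its rank. In the authors' deposited table, the 4 spots stood at log10 ratios of 1.51, 1.5, 1.67 and 0.05, in the same order. The spot with the highest ratio from the scanner signals thus had the lowest in the authors' deposited table, and with their values the mean of cta3 was 3.93 on the log2 scale and did not pass the threshold used below.

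The wild-type signal of cta3 was close to the limit of detection. After subtraction of the local background it was 1406 and 1782 on array 1, against a limit of 1659 set by the 95th percentile of bacterial control spots in that channel. On array 2 it was 202 and -1480, against a limit of 488. The mutant signals, by contrast, exceeded their limits of 442 and 1076.5 on every spot. When both spots were averaged, the wild type fell short of the limit on both arrays. With the wild type set at the lowest signal of features above the limit where its own was lower, the mutant was 19.8-fold higher. The same estimate was 17.6-fold with code 3 spots left out. It was 22.5-fold with code 3 spots kept and spots under local background left out. The mean in the authors' deposited table was 15.2-fold. The estimate is not a lower bound, since it uses the lowest such signal and takes no account of the spread between arrays.

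**Figure D2:**
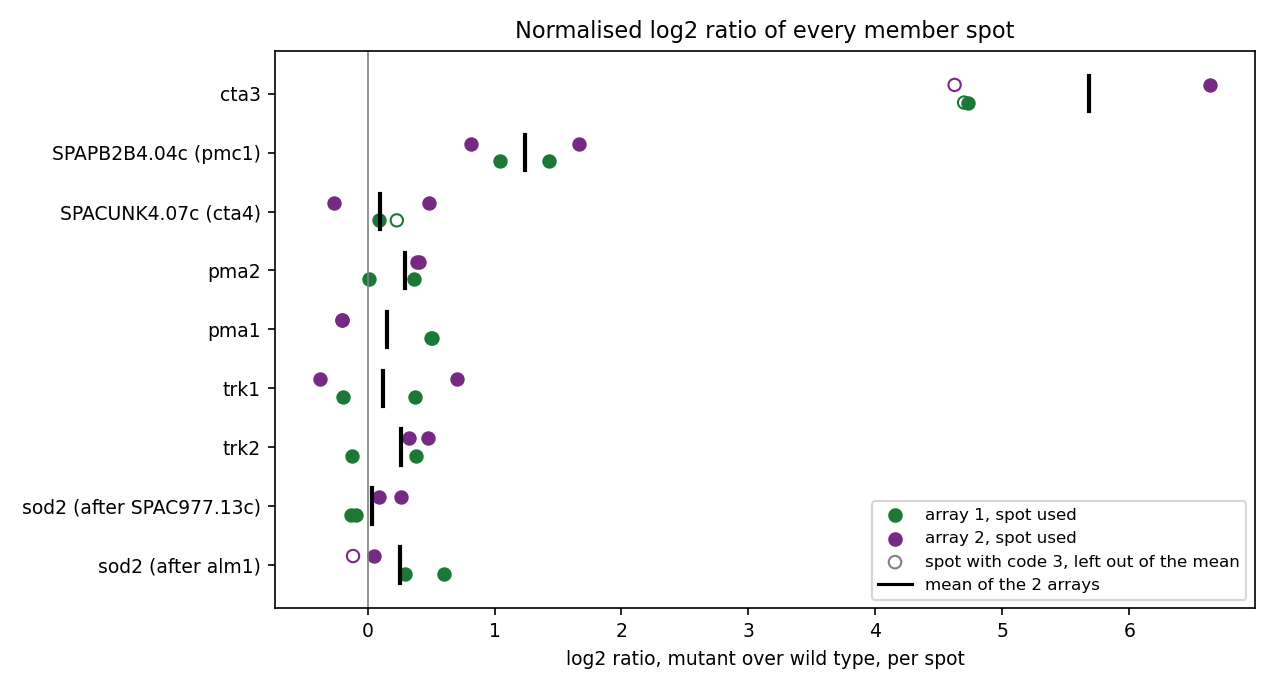
Normalised log2 ratio of mutant over wild type (x axis) for every spot of the 9 member features (rows), coloured by array, with the mean of the arrays as a black line. The cta3 spots sit at 4.62 to 4.73 except for one at 6.64, the pmc1 spots at 0.81 to 1.67, and spots of other members on both sides of 0 or close to it.

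Pmc1 moves calcium into the vacuole, and its gene was higher in the mutant on all 4 spots. Mutant and wild-type intensities were 3312 and 3593 for the first spot on array 1 and 4741 and 5917 for the second. On array 2 they were 3869 and 1295, and 8765 and 1733. The wild-type channel of array 1 was brighter over the whole array, with a median gene signal of 4236 against 1338 in the mutant channel, so the raw signals of pmc1 crossed on that array and its difference appears after normalisation. The normalised log2 ratios were 1.43 and 1.04 on array 1 and 0.81 and 1.67 on array 2.

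Averaged over spots, the arrays agreed on pmc1 far more closely than its duplicates did. The array means were 1.23 and 1.24, a mean of 1.24 ± 0.0033 (SD, n = 2) or 2.36-fold, while the SD over the 4 spots was 0.38. The limma 95% interval, which draws most of its error from all features, ran from 1.73-fold to 3.20-fold. The SD of the array means therefore understates the uncertainty of this value. No spot of pmc1 was saturated, and its signals exceeded the limit in every channel.

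Log2 ratios were fitted across all 4837 features with a value on both arrays, by limma with Benjamini-Hochberg adjustment and a threshold of 0.05. Of the 9 member features, 2 passed, cta3 and pmc1, both higher, whereas 3.41% of all features passed, 2.4% higher and 1.01% lower. The same 2 were at least 2-fold higher on both arrays, against 1.53% of all features. As the genes were chosen with these ratios known, nothing is read from these counts. The call of pmc1 was lost under plain background subtraction, median centring and with the authors' deposited values, although its mean kept within 1.20 to 1.32 over 15 other settings. Several of these 15 left that mean unchanged, so they do not bear on how stable it is.

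**Figure D3:**
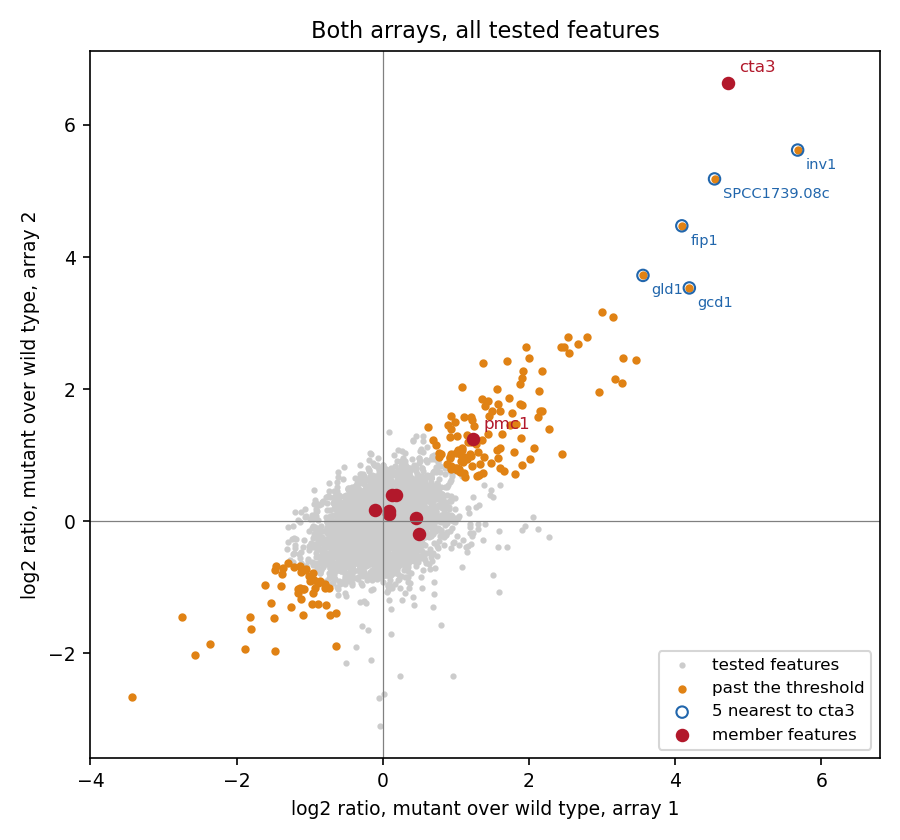
Log2 ratio of mutant over wild type on array 1 (x axis) and array 2 (y axis) for 4837 tested features (grey), those past the threshold (orange) and the member features (red), with the 5 features nearest to cta3 circled. Among the members, cta3 and pmc1 are past the threshold.

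SPACUNK4.07c encodes Cta4, a P-type ATPase of the endoplasmic reticulum. Its spots had normalised log2 ratios of 0.09 and 0.23 on array 1 and -0.27 and 0.49 on array 2, so the duplicates on array 2 fell on both sides of 0. The mean was 0.10 ± 0.02 (n = 2), without the code 3 spot at 0.23, and the 95% interval ran from -0.34 to 0.54.

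The proton ATPase genes could be compared in pma2 alone. All 4 spots of pma1, which encodes the major plasma membrane proton pump, stood at the saturation value of 65535 in both strains on both arrays. No ratio can be read from them: the normalised values of 0.50 on array 1 and -0.20 on array 2 have opposite signs and come from equal readings. Spots of pma2, which encodes the second proton pump, gave 0.37 and 0.01 on array 1 and 0.40 and 0.39 on array 2. After subtraction of the local background, the spot at 0.37 was just over its limits. It stood at 502 against 442 in the mutant and at 1766 against 1659 in the wild type. The mean was 0.29 ± 0.15 (n = 2), higher on both arrays without passing the threshold, with a 95% interval from -0.16 to 0.74. As pma1 and pma2 are related in sequence, a spot may read RNA of both, which was not tested.

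The name sod2 belongs to more than 1 gene. In the ASM294v3 table, sod2 is the symbol of SPAC1486.01, the superoxide dismutase gene, and a synonym of SPAC977.10 (nhe1), the sodium and proton antiporter. One sod2 feature was printed directly after SPAC977.13c, which shares a clone name with SPAC977.10, and before SPAPB1A10.06c, which lies 760 protein-coding genes from SPAC977.10 and 572 from SPAC1486.01. The other was printed between alm1 and rpl23-1, whose genes each lie 3 protein-coding genes from SPAC1486.01. Print order followed gene order on this array, since 96.3% of 3449 features with a systematic name had a print neighbour within 10 protein-coding genes. No feature was named SPAC977.10, nhe1 or SPAC1486.01. By its neighbours on both sides, the feature beside alm1 is likely that of the dismutase. The feature after SPAC977.13c may be that of the antiporter, which rests on 1 print neighbour, and the files state neither.

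Neither sod2 feature passed the threshold. The feature after SPAC977.13c had intensities of 3724.5 and 4472.5 in the mutant against 10243 and 12159 in the wild type on array 1, and of 6751.5 and 4168.5 against 4383 and 2085 on array 2. Its normalised log2 ratios were -0.09 and -0.13 on array 1 and 0.09 and 0.26 on array 2, lower on one array and higher on the other. The mean was 0.03 ± 0.20 (n = 2), with a 95% interval from 0.75-fold to 1.40-fold. The feature beside alm1 stood at 0.25 ± 0.28 (n = 2). The authors' deposited table gives the same value to both sod2 positions in each set of spots, as it does for all 28 names printed at several positions, so the genes cannot be told apart in it.

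For the potassium transporter gene trk1, the spots stood at -0.20 and 0.37 on array 1 and at -0.37 and 0.70 on array 2. One duplicate was lower and the other higher on each array. The spot at -0.20 had a mutant signal of 433.5 after subtraction of the local background, under the limit of 442. The difference of 1.08 between duplicates on array 2 exceeded the 90th percentile of 0.91 over all features. The mean of 0.13 ± 0.05 (n = 2) was negative under print-tip loess (-0.06), median centring (-0.08) and with code 2 spots left out. The second potassium transporter gene, trk2, was dim. Its intensities in the wild type on array 2 were 20.5 and 100, and neither strain was above its limit on that array. On array 1 the mean of its spots was just over the limit in the mutant, at 476 against 442, and over it in the wild type, at 2034 against 1659. The spot at 0.38 was under the limit in both strains, and the other stood at -0.12.

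No neighbour of cta3 in gene order passed the threshold. Among the nearest 2 protein-coding genes on each side, the ribosomal protein gene rps1701 stood at 0.34 ± 0.22, ibp1, which encodes a phosphatase, at 0.05 ± 0.07 and its8, needed for the synthesis of membrane anchors of proteins, at 0.52 ± 0.22 (n = 2 each). Their limma adjusted p were 0.479, 0.944 and 0.245, and the gene new20 had no feature. Beside pmc1, the cyclin gene cig2 stood at 0.09 ± 0.16 and vma5, which encodes a subunit of the vacuolar proton ATPase, at -0.03 ± 0.32. Further out, grx5 stood at -0.66 ± 0.01 (limma adjusted p = 0.125), and SPAPB2B4.06 was not tested. Around the 9 member features, 32 neighbour features were tested and 2 passed, both lower, against 3.41% of all features called and 1.01% called lower. These were gsa1, which encodes glutathione synthetase, 2 genes from trk1 (-0.97 ± 0.06, limma adjusted p = 0.0253), and SPAC977.12, 2 genes from SPAC977.10 (-1.28 ± 0.03, limma adjusted p = 0.00558).

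**Figure D4:**
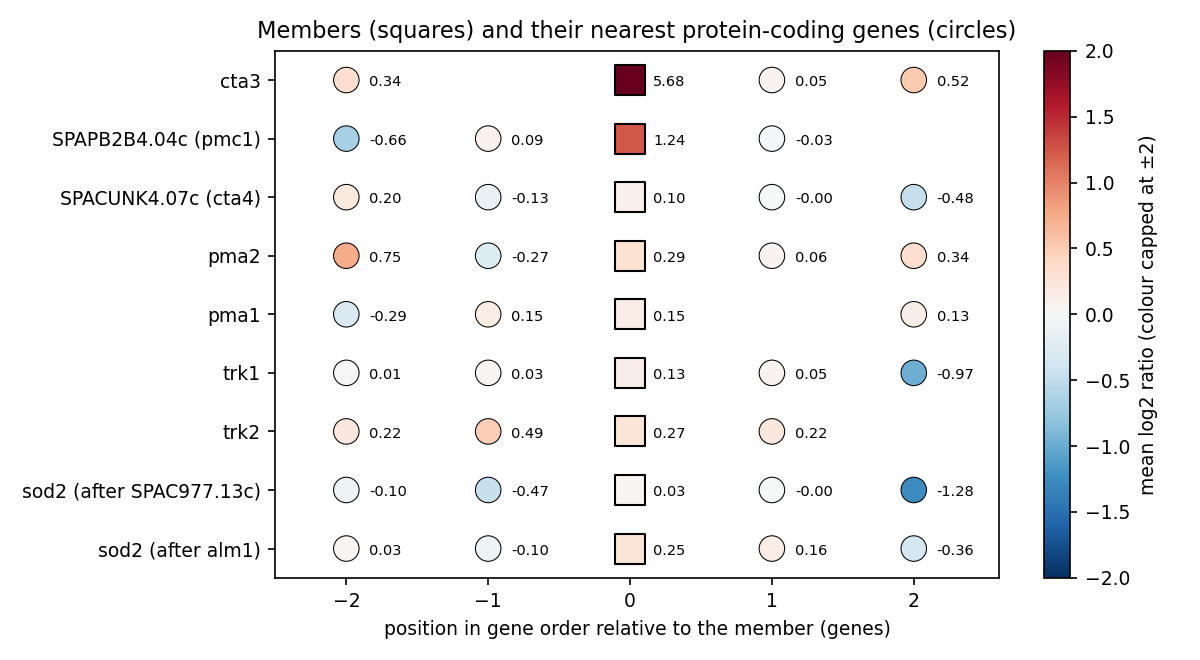
Mean log2 ratio of mutant over wild type (colour and printed number) for each member (squares) and up to 2 protein-coding genes on each side in gene order (x axis, in genes); genes without a tested feature are blank. The cta3 neighbours stand at 0.34, 0.05 and 0.52 against 5.68 for cta3.

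Other genes of ion transport and of the pathway upstream of cta3 were read from 5 lists. Of 47 tested features, 0 passed the threshold with limma, whereas 3.41% of all features passed. An unadjusted p under 0.05 was found for 7 of the 47, or 14.9%, against 16.1% of all features. Among 7 other P-type ATPases the median log2 ratio was 0.10, and the values ran from -0.38 for SPAC4F10.16c to 0.23 for dnf1, which encodes a lipid flippase. For 11 subunit genes of the vacuolar proton ATPase the median was -0.06, from -0.55 for vma8 to 0.29 for vma1. Features of vma2 and vma3 had no value on array 1. The median over all features was 0.0066.

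For 13 genes of calcium channels, exchangers and calcineurin signalling the median was 0.03. Among these 13, trp663 was not above its limit in either strain on either array, and cam1 was saturated on array 1. The highest was the channel gene cch1 (0.50 ± 0.48, limma adjusted p = 0.308) and the lowest the calcium sensor gene ncs1 (-0.21 ± 0.01). The gene of Prz1, the transcription factor activated by calcineurin, stood at 0.14 ± 0.27, and that of the vacuolar calcium exchanger Vcx1 at 0.24. Among 4 genes of alkali cation and proton regulation, kha1, which encodes a potassium and proton antiporter, was highest at 0.30 ± 0.52, and the protein kinase gene hal4 lowest at 0.03 ± 0.30.

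In the Sty1 MAP kinase cascade, 12 features had a median of -0.0042. The gene atf1 stood at 0.01 ± 0.12 and pcr1, which encodes the partner of Atf1, at 0.12. The feature of sty1 had no value on array 2. The highest was pyp2, which encodes a phosphatase of Sty1 (0.51 on array 1 and 1.06 on array 2, mean 0.79 ± 0.39, limma adjusted p = 0.0895), and the lowest wis4, a MAP kinase kinase kinase gene (-0.33 ± 0.0039). Although pyp2 missed the threshold here, it passed in 8 of the other settings, with adjusted p of 0.00198 to 0.0368 by limma.

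By distance in the plane of the array log2 ratios, the features nearest to cta3 were inv1 (5.68 and 5.62 on arrays 1 and 2), SPCC1739.08c (4.54 and 5.18), fip1 (4.09 and 4.47), gld1 (3.56 and 3.72) and gcd1 (4.19 and 3.53). These encode invertase, a short-chain dehydrogenase, an iron permease, a glycerol dehydrogenase and a glucose dehydrogenase. Their order depended on the cta3 spots: the distance was smallest for inv1 (1.39) with code 3 spots left out, and for fip1 (0.71) and SPCC1739.08c (0.72) with code 3 spots kept and spots under local background left out. The same 5 features were nearest in both settings. The wild-type signal was not above its limit on array 2 for inv1 and SPCC1739.08c and on array 1 for gcd1, so the likeness is a description of 2 arrays only.

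**Figure D5:**
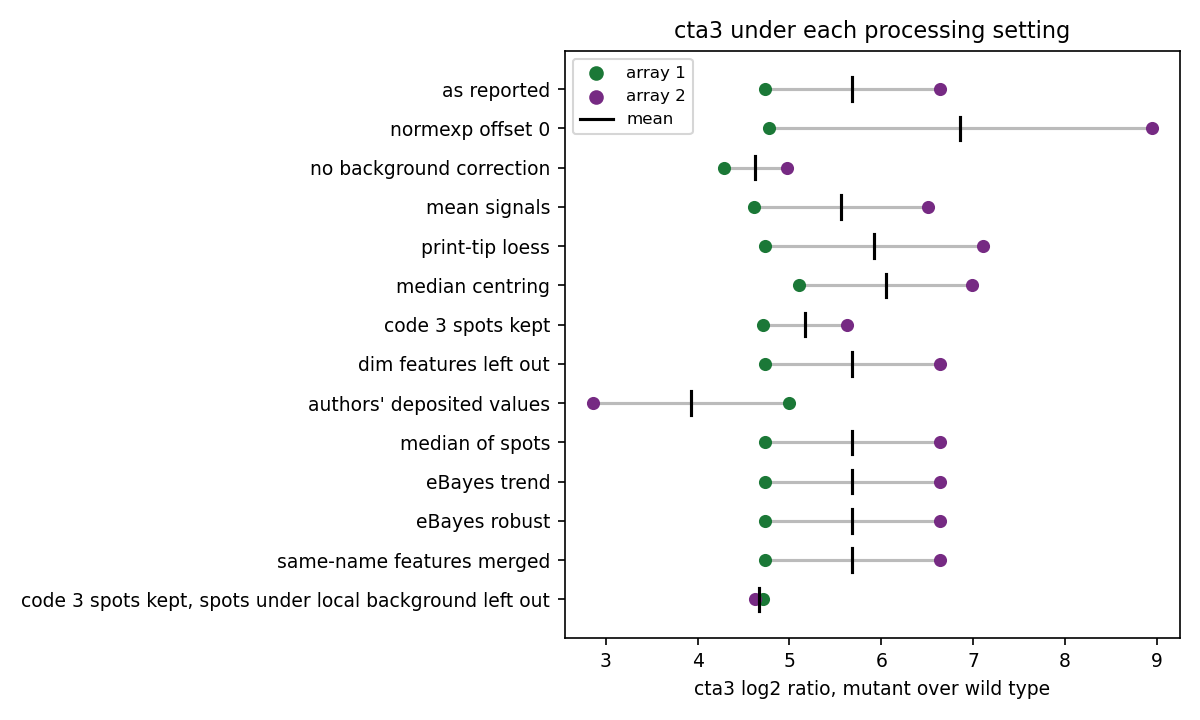
Log2 ratio of cta3 (x axis) on array 1 (green), array 2 (purple) and their mean (black line) under each processing setting (rows) that gave it a value. Array 1 stays within 4.29 to 5.11 while array 2 is lowest, at 2.86, in the authors' deposited table and highest, at 8.95, when the normexp offset is 0.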

How the data were processed

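Scanner tables deposited by the authors gave linear intensities, per the file headers, and a quality score (code 0, 2 or 3) per spot and channel. The authors also deposited log10 ratios normalised by Lowess, per the series design text; scale and direction were read from the values. Median signals were corrected with normexp (offset 50) and 1 loess curve per array, with control and code 3 spots at weight 0, in limma 3.58.1 (R 4.3.3, statmod 1.5.0). Spots with code 3 were left out and the 2 spots of a print position averaged. Positions that share a name were kept apart. Log2 ratios were fitted with lmFit and eBayes over 4837 features, with 1 residual degree of freedom each and 9.11 from the prior. Array names were matched to the ASM294v3 table (4820 of 4982), used for names and gene order only. The median signal of gene spots was between 1338 and 4236 in the 4 channels, and the number of arrays limits the precision. The fit was tested on simulated data. Named genes were all members, the 5 features nearest to cta3, called or extreme list genes, and gene neighbours; genes named beyond these (prz1, vcx1, atf1, pcr1) were added for their role. Members and lists were chosen with earlier results of these data known.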

Additional observations from a re-analysis of the deposited data

How the results depend on the processing

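The fit was already paired, because each ratio compares both strains within 1 array, which leaves no replicate number to add as a block. The count of 165 called features (116 higher, 49 lower) moved to 347 without background correction, 62 with plain subtraction, 360 with mean signals, 418 with print-tip loess, 38 with median centring, 261 with code 3 spots kept, 261 with code 2 spots left out, 332 without dim features, 15 with the authors' deposited values and 291 with a trend in eBayes. It was also 291 with code 3 spots kept and spots under local background left out, which was chosen after seeing the data. The cause was not tested. Higher calls were 218 of 418 with print-tip loess, 33 of 38 with median centring and 2 of 15 with the authors' deposited values. The 2 calls among members became 1 with median centring (cta3) and 1 with code 2 spots left out (pmc1), where cta3, pma2 and trk2 had no value. They became 0 with the authors' deposited values, where the mean of cta3 was 3.93, and 0 with plain subtraction, where cta3 had no value because its wild-type spot on array 2 was at or under 0. The list count of 0 became 1 (pyp2) in 7 of these settings and 2 with print-tip loess (pyp2 higher, vma4 lower). Over 13 other settings cta3 ranged from 15.2-fold to 116-fold, and from 4.73 to 6.64 with 1 array left out, where no test could be run. The sign of trk1 turned with print-tip loess (-0.058), median centring (-0.084) and code 2 spots left out (-0.0012), and that of SPACUNK4.07c with print-tip loess (-0.014). Dim wild-type signal limits the fold of cta3, and saturation that of pma1.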
